A study of Caenorhabditis elegans with 60 samples.

Results

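The left arm of chromosome V of Caenorhabditis elegans was described as the windows of 500 bp that end at or before position 5897000 of the ce10 assembly. There were 11794 such windows of 200579 in the whole table, and they were chosen by position alone. The measure was H3K9me3, the trimethylated lysine 9 of histone H3, over input chromatin in early embryos harvested before the bean stage. The genotypes were nrde-3(tm1116), lin-61(tm2649), the double mutant of met-2(n4256) with nrde-3(tm1116), the double mutant of met-2(n4256) with lin-61(tm2649), and the wild type N2 (Bristol). Each mutant had 3 chromatin preparations and N2 had 2, because the preparation labelled N2 replicate 1 was left out. No met-2 single mutant was analysed here, so both double mutants are also set against the single mutant that shares their nrde-3 or lin-61 allele. The growth protocol speaks of 2 independent replicates and the extraction protocol of 3, so it is not stated which preparations came from separate cultures. The p-values measure the spread between preparations, which may in part be technical.

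H3K9me3 marks silent chromatin and lies mainly over repeats and silent genes. Autosomes of this nematode have gene-dense centres and repeat-rich arms, and H3K9 methylation is concentrated on the arms. NRDE-3 is an Argonaute protein that carries small RNAs into the nucleus of somatic cells. LIN-61 is an MBT-domain protein that binds methylated H3K9, and MET-2 is an H3K9 methyltransferase related to SETDB1. The title of the series states its question, whether NRDE-3 and LIN-61 belong to parallel routes that bring the H3K9me3 enzyme to chromatin.

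The 28 libraries used held between 22265768 and 65845682 counts each, and the median left-arm window held between 100 and 269 counts per library. Of the left-arm windows, 10527 were covered evenly enough by the inputs of all genotypes to be compared. Both genotypes with the lin-61 allele came from another library series than nrde-3, met-2 nrde-3 and N2. Effects of the series and of the lin-61 allele therefore cannot be told apart in comparisons that cross the series. The H3K9me3 libraries also differed in contrast. The 99th percentile of window counts over the median was 4.88 to 14.6 in nrde-3, 2.42 to 3.24 in lin-61, 5.47 to 8.41 in met-2 nrde-3, 2.83 to 3.49 in lin-61 met-2 and 17.2 to 20.4 in N2. The part of this difference in the results below was not tested, except where results after dividing each preparation by its own spread are given.

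Across the whole left arm, H3K9me3 was lower in all mutant preparations than in N2. The level of a preparation, its log2 ratio of H3K9me3 to input averaged over the windows, was 0.32, 0.54 and 0.19 in nrde-3 and 0.16, 0.17 and 0.08 in lin-61. It was 0.02, 0.02 and 0.04 in met-2 nrde-3 and 0.04, 0.11 and 0.15 in lin-61 met-2, against 0.56 and 0.64 in N2. No mutant preparation reached either N2 value, and nrde-3 replicate 2 came closest. The nrde-3 preparations spread over a wider range than those of any other genotype on this arm. The level averaged 0.35 ± 0.18 in nrde-3, 0.14 ± 0.05 in lin-61, 0.03 ± 0.01 in met-2 nrde-3 and 0.10 ± 0.06 in the lin-61 met-2 double mutant (SD, n = 3 each), against 0.60 ± 0.06 in N2 (SD, n = 2). The exact two-sided permutation p was 0.2 for each mutant against N2, the smallest that 3 against 2 preparations allow, with an adjusted p of 0.24 over 6 comparisons. With library totals as the only scaling the difference from N2 was -0.02 in met-2 nrde-3 and turned to 0.19 for nrde-3, 0.28 for lin-61 and 0.24 for the lin-61 met-2 double mutant. The median change of the left-arm windows was then 0.20 for met-2 nrde-3, 0.26 for nrde-3, 0.41 for lin-61 and 0.45 for lin-61 met-2. The median change of all windows of the genome was 0.61, 0.45, 0.64 and 0.71 in the same order, so the left arm was below it in each.

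Each double mutant was also set against its single mutant. In met-2 nrde-3 the 3 preparations lay below all 3 of nrde-3, by 0.32 ± 0.10 (SE), with an exact two-sided permutation p of 0.1, the smallest possible, and an adjusted p of 0.24. In lin-61 met-2 the preparations overlapped those of lin-61, and the difference was -0.03 ± 0.04 (SE), exact permutation p = 0.5, adjusted p = 0.5.

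The left arm carried much less H3K9me3 than the right arm of V in N2, and the differences between genotypes were smaller on it than on the right arm. The right arm was taken as the stretch of equal length at the other end, from 15027412. The arms of I to IV were taken as a fixed fraction of each chromosome's length at either end, not by recombination. The left arm was nearer to the arms of I to IV, which averaged 0.60 in N2, 0.30 in nrde-3 and 0.10 in lin-61. Those arms averaged 0.02 for the met-2 nrde-3 double mutant. For the lin-61 met-2 double mutant they averaged -0.08, and there the left arm lay above them by 0.17 to 0.19 within each preparation. In met-2 nrde-3 the left arm averaged 0.03 ± 0.01, the right arm 0.14 ± 0.03 and the centre 0.38 ± 0.06 (SD, n = 3). In lin-61 met-2 the left arm averaged 0.10 ± 0.06, the right arm 0.26 ± 0.07 and the centre 0.23 ± 0.02 (SD, n = 3). In N2 the left arm averaged 0.60 ± 0.06, the right arm 2.01 ± 0.16 and the centre -0.17 ± 0.03 (SD, n = 2). The left arm was thus below the centre in both double mutants and above it in N2. Within each preparation of met-2 nrde-3 the left arm lay below the centre by 0.32 to 0.42, whereas in N2 it lay above it by 0.71 and 0.83. Within nrde-3 preparations the left arm stood above the centre by 0.21 to 0.65 and within lin-61 by 0.14 to 0.28. The difference between left arm and right arm and that between left arm and centre separated the preparations of both genotypes in all 6 comparisons. The exact permutation p of those differences was 0.2 against N2 and 0.1 between double and single mutants, again the smallest possible, with an adjusted p of 0.2 over 12 tests. A scaling factor common to all windows of a library cancels in these differences, apart from the pseudocount.

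**Figure D1:**
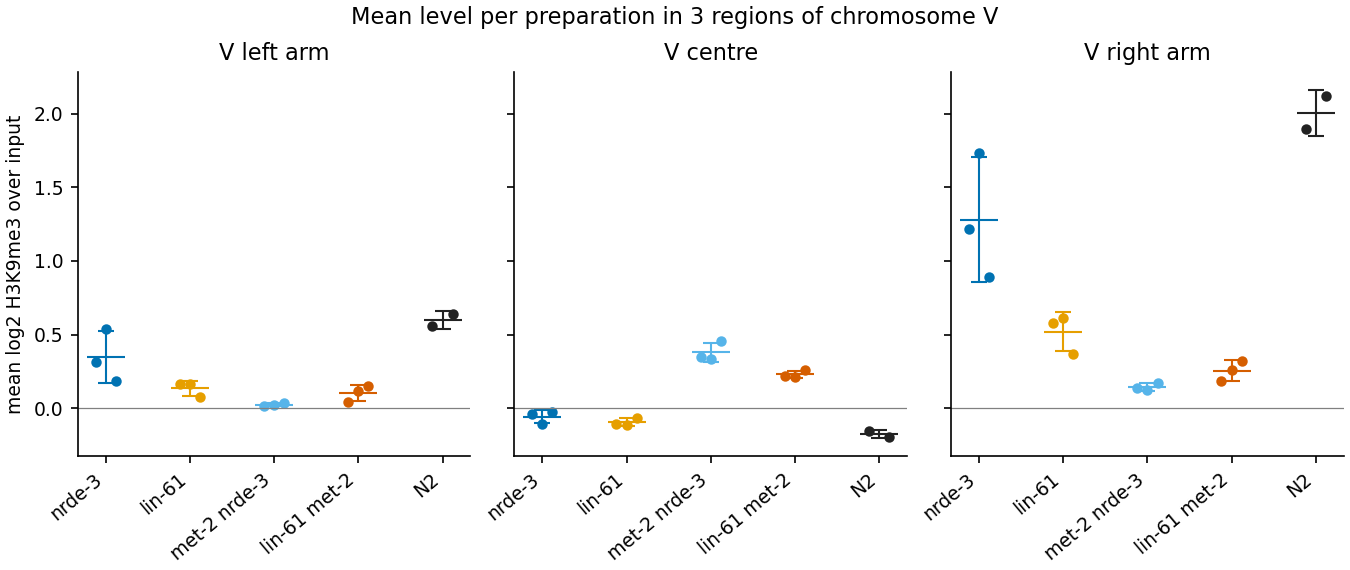
Mean log2 ratio of H3K9me3 over input per preparation in the left arm, the centre and the right arm of chromosome V. Points are preparations, and bars give the mean and SD of 3 preparations per mutant and 2 of N2; on the left arm all mutant points lie below the N2 points, while in the centre both double mutants lie above N2.

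Enriched windows were fewer on the left arm of the mutants. A window counted as enriched when its mean log2 ratio over the preparations of a genotype was at least 1, that is when H3K9me3 was at least doubled over input. Enriched windows made up 13.6% of the 10527 left-arm windows in nrde-3, 5.41% in lin-61, 3.19% in met-2 nrde-3, 3.25% in lin-61 met-2 and 24.6% in N2. In counts these were 1429, 570, 336 and 342 windows in the mutants and 2594 in N2. Averaged over preparations, the left-arm share was 13.7% in nrde-3, 6.31% in lin-61, 3.33% in met-2 nrde-3, 4.48% in lin-61 met-2 and 24.9% in N2. On the arms of I to IV that average was 13.5%, 7.65%, 4.31%, 3.60% and 26.3% in the same order. The top of the distribution differed in another order: the 99th percentile of the left-arm windows was 2.70 in nrde-3, 1.64 in lin-61, 2.28 in met-2 nrde-3, 1.64 in lin-61 met-2 and 3.78 in N2. The median window was lowest in met-2 nrde-3, at -0.07, and had 0.13 in nrde-3, 0.10 in lin-61 and 0.08 for lin-61 met-2, against 0.29 in N2.

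Windows that were strongly marked in N2 had different fates. N2 had 1005 windows with a mean log2 ratio of at least 2. Of these, 982 were still at 1 or more in nrde-3, 420 in lin-61, 210 in met-2 nrde-3 and 218 in the lin-61 met-2 double mutant, and 173 were at 1 or more in both double mutants. These windows were chosen on the N2 values, which favours lower values elsewhere, so they are a description and were not tested against N2. Across the 10527 windows the profile of nrde-3 stayed close to that of N2 in shape, with a Pearson r of 0.95, while r with N2 was 0.72 in lin-61, 0.53 in met-2 nrde-3 and 0.57 in the lin-61 met-2 double mutant. The double mutants resembled each other with an r of 0.71. These correlations are across neighbouring windows, which are not independent, and each pair of profiles shares the sequence and mappability of the windows.

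H3K9me3 was unevenly spread along the arm. Of 12 consecutive bins of 500 kb, the one from 500001 to 1000000 was the highest in nrde-3, lin-61 and N2. It had 1.09 ± 0.48 in nrde-3 and 0.36 ± 0.12 in lin-61 (SD, n = 3 each), against 1.61 ± 0.12 in N2 (SD, n = 2). In met-2 nrde-3 that bin stood at 0.04 ± 0.02, and the highest bin was the one from 5000001 to 5500000, at 0.21 ± 0.05. In lin-61 met-2 the bin from 500001 to 1000000 had 0.12 ± 0.07 and the highest bin was that from 3000001 to 3500000, at 0.28 ± 0.06. The share of enriched windows between 500001 and 1000000 was 2.55% in met-2 nrde-3, against 68.2% in N2. Toward the centre of the chromosome the N2 level declined, though not steadily. It was 1.03 ± 0.10 between 3000001 and 3500000 and 0.07 ± 0.00 between 4500001 and 5000000. It then stood at 0.30 ± 0.03 between 5000001 and 5500000 and at -0.20 ± 0.01 in the innermost bin, from 5500001 to 5897000 (SD, n = 2).

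At 100 kb resolution the peak of the arm lay between 500001 and 600000 in N2 and in nrde-3. That bin had 0.97 to 2.26 in the nrde-3 preparations, 0.35 to 0.64 in lin-61, -0.02 to 0.00 in met-2 nrde-3, 0.19 to 0.29 in lin-61 met-2, and 2.05 and 2.24 in N2. None of its windows was enriched in met-2 nrde-3, against 97% in N2. The highest bin of lin-61 and of lin-61 met-2 was the one from 3300001 to 3400000, with 0.55 ± 0.13 in lin-61 and 0.59 ± 0.05 in the lin-61 met-2 double mutant, against 1.77 ± 0.14 in N2. The highest bin of met-2 nrde-3 was from 5100001 to 5200000, with 0.66 ± 0.08 against 0.97 ± 0.07 in N2. The lowest bin was from 900001 to 1000000 in both double mutants, at -0.15 ± 0.02 in met-2 nrde-3 and -0.34 ± 0.07 in the lin-61 met-2 double mutant, against 0.63 ± 0.04 in N2. It was from 5500001 to 5600000 in the other genotypes, at -0.11 ± 0.05 in nrde-3, -0.16 ± 0.03 in lin-61, against -0.22 ± 0.02 in N2.

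**Figure D2:**
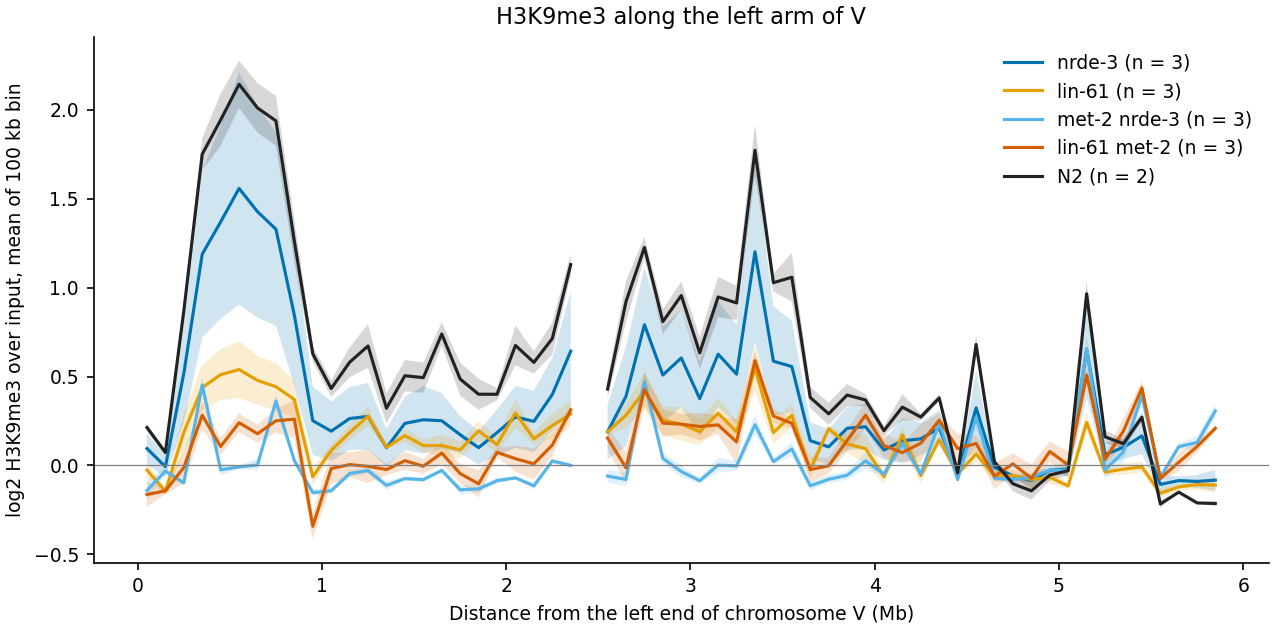
Mean log2 ratio of H3K9me3 over input in bins of 100 kb along the left arm of V, against the distance from the left chromosome end in Mb. Lines are genotype means and shading is the SD of 3 preparations per mutant and 2 of N2; the bin without a value held no evenly covered window. The N2 line peaks at 2.14 in the outer arm, the met-2 nrde-3 line stays near 0 there, and both double mutants exceed N2 at the inner end.

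Single windows were compared with edgeR's quasi-likelihood test on the counts, with p-values adjusted by the Benjamini-Hochberg procedure over 184418 windows of all chromosomes and a threshold of 0.05. A change is the log2 ratio of H3K9me3 over input in the first-named genotype minus that in the second. In nrde-3 against N2, 403 left-arm windows were lower, 3.83% of those tested, against 5.16% of all windows. On the arms of I to IV the share of lower windows was 9.86%. No left-arm window was higher by edgeR, against 0.113% of all windows, while 69 were higher at an unadjusted p under 0.05 and the DESeq2 and limma tests called 1 and 0. The median change of the arm was -0.21, against -0.02 over all windows. The count of lower windows rested on single libraries. It was 158 without N2 replicate 2, 11 without N2 replicate 3, 23 without nrde-3 replicate 1, 2646 without nrde-3 replicate 2 and 34 without nrde-3 replicate 3. After dividing each preparation by its own spread, limma called 9. With library totals as the only scaling the balance turned, to 137 lower and 775 higher windows. Windows of 2000 bp, counted as 500 bp windows, gave 1529 lower and 36 higher.

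One locus stood out in nrde-3. At V 1684969 to 1692968, 16 consecutive windows were lower in nrde-3, the largest mean change of the arm in this comparison. The mean log2 ratio there was 0.64, 1.13 and 0.51 in nrde-3, against 3.11 and 3.40 in N2, and the other mutants had 0.75 to 1.08 in lin-61, 0.45 to 0.62 in met-2 nrde-3 and 0.70 to 0.97 in the lin-61 met-2 double mutant. Of the 64 N2 domains described further on it was the third highest in N2, and at it all mutant preparations lay below 1.2. The mean change in nrde-3 against N2 was -2.50 and the median adjusted p of the windows was 0.00025 (edgeR). Of the 16 windows, 9 or more stayed called when any 1 of the 5 preparations was left out, and 7 after division by the spread. A second locus began 1500 bp away. At V 1694469 to 1697968, 7 windows were lower, with 0.49, 0.98 and 0.38 in nrde-3, against 1.95 and 2.16 in N2, a mean change of -1.44 and a median adjusted p of 0.0082 (edgeR). Between 2 and 7 of its windows stayed called when a preparation was left out.

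The next 3 loci of nrde-3 changed less and depended on the libraries used. There were 40 loci in all, of 2000 bp in the median, 31 of them between 1 and 4 Mb from the left end. At V 4301958 to 4303957 the mean change was -1.34, with 2.12, 3.09 and 1.82 in nrde-3, against 3.61 and 3.85 in N2. At V 4578957 to 4580956 it was -1.18, with 1.74, 2.86 and 1.52 in nrde-3, against 3.18 and 3.39 in N2. At V 2652465 to 2653964 it was -1.18, with 0.44, 1.47 and 0.78 in nrde-3, against 1.99 and 2.14 in N2. At all 3 loci nrde-3 replicate 2 lay nearest to N2, and in all 3 no window was called after division by the spread. No window of these 3 loci was called without N2 replicate 3 or without nrde-3 replicate 1, and none of the first 2 without N2 replicate 2 or nrde-3 replicate 3.

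In lin-61 against N2, losses covered a large part of the arm. Lower windows numbered 3375, or 32.1% of those tested, against 23.2% of all windows, and 266 were higher, or 2.53%, against 6.09% of all windows. On the arms of I to IV the shares were 36.1% and 4.78%. The left-arm count of lower windows was 1964 without N2 replicate 3 and 1455 after dividing each preparation by its spread, and that of higher windows was 97 without N2 replicate 2 and 124 without N2 replicate 3. Lower windows formed 226 loci, and the 5 largest mean changes lay between -2.13 and -2.94. The largest was at V 314975 to 316974, with 1.16, 0.92 and 0.47 in lin-61, against 3.60 and 3.95 in N2, a mean change of -2.94 and a median adjusted p of 1.1e-06 (edgeR). The longest ran over 119000 bp, from V 496474 to 615473, with 0.59, 0.60 and 0.33 in lin-61, against 1.98 and 2.16 in N2, a mean change of -1.60. Further large changes were at V 5183454 to 5192953 (-2.44), V 1684469 to 1692968 (-2.24), V 731973 to 739472 (-2.15) and V 317975 to 336974 (-2.13).

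The 20 loci that were higher in lin-61 were short and of low level. The largest mean change, 1.10, was at V 3705460 to 3707459, with 1.04, 0.87 and 1.17 in lin-61, against 0.00 and -0.09 in N2, and a median adjusted p of 0.0011 (edgeR). The others with large changes were at V 4959955 to 4961954 (1.08), V 4346958 to 4349457 (1.05), V 4824956 to 4826455 (0.99) and V 177475 to 179474 (0.97). At these 4 loci lin-61 had mean levels of 0.42 to 0.55, against -0.35 to -0.48 in N2, that is below input in N2. The longest, at V 5716952 to 5720451, covered 3500 bp, with 0.40 ± 0.12 in lin-61 and 0.86 ± 0.12 in the met-2 nrde-3 double mutant (SD, n = 3 each), against -0.26 ± 0.01 in N2 (SD, n = 2).

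In met-2 nrde-3 against N2, 4021 windows were lower, or 38.2% of the arm, against 24.0% of all windows, and 209 were higher, or 1.99%, against 14.6% of all windows. On the arms of I to IV the shares were 38.6% and 5.37%. Over the outer arm long stretches had log2 ratios near 0 in met-2 nrde-3 after scaling. The longest locus, V 480474 to 613973, covered 133500 bp and had mean log2 ratios of -0.03, 0.00 and -0.03 in met-2 nrde-3, against 1.86 and 2.05 in N2, a mean change of -2.05 and a median adjusted p of 1.1e-06 (edgeR). The locus at V 364975 to 451973 had 0.10, 0.07 and 0.08 in met-2 nrde-3, against 2.48 and 2.72 in N2, a mean change of -2.56. That at V 614974 to 683972 had -0.05, 0.03 and 0.01 in met-2 nrde-3, against 2.04 and 2.24 in N2, a mean change of -2.20. The largest change, -2.92, was again at V 314975 to 316974, with 0.82, 0.80 and 1.03 in met-2 nrde-3, against 3.60 and 3.95 in N2. Lower windows formed 286 loci, and V 1681969 to 1692968 (-2.26) and V 771473 to 773472 (-2.17) completed the 5 largest changes.

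In lin-61 met-2 against N2, 3589 windows were lower, or 34.1%, against 25.5% of all windows, and 377 were higher, or 3.58%, against 11.6% of all windows. On the arms of I to IV the shares were 42.4% and 3.79%. Lower left-arm windows formed 253 loci. The largest change was at V 314975 to 316974 here too, with 0.26, 0.37 and 0.35 in lin-61 met-2, against 3.60 and 3.95 in N2, a mean change of -3.48 and a median adjusted p of 1.6e-08 (edgeR). The longest, V 496474 to 613973, covered 117500 bp, with 0.17, 0.23 and 0.27 in lin-61 met-2, against 2.00 and 2.19 in N2, a mean change of -1.89. The other large changes were at V 1196971 to 1201970 (-2.39), V 717473 to 739472 (-2.21), V 364975 to 463973 (-2.17) and V 771473 to 773472 (-2.09). After division by the spread of each preparation, limma called 2640 lower windows in met-2 nrde-3 and 2131 in the lin-61 met-2 double mutant. With library totals as the only scaling, lower and higher windows numbered 1223 and 3848 in lin-61, 2243 and 2247 in met-2 nrde-3 and 1554 and 4369 in lin-61 met-2. With N2 replicate 1 kept as labelled they numbered 1 and 14, 260 and 132, and 218 and 157 in the same order, and none was called in nrde-3. The comparisons with N2 share its 2 preparations, so their counts and loci are not independent of each other.

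**Figure D3:**
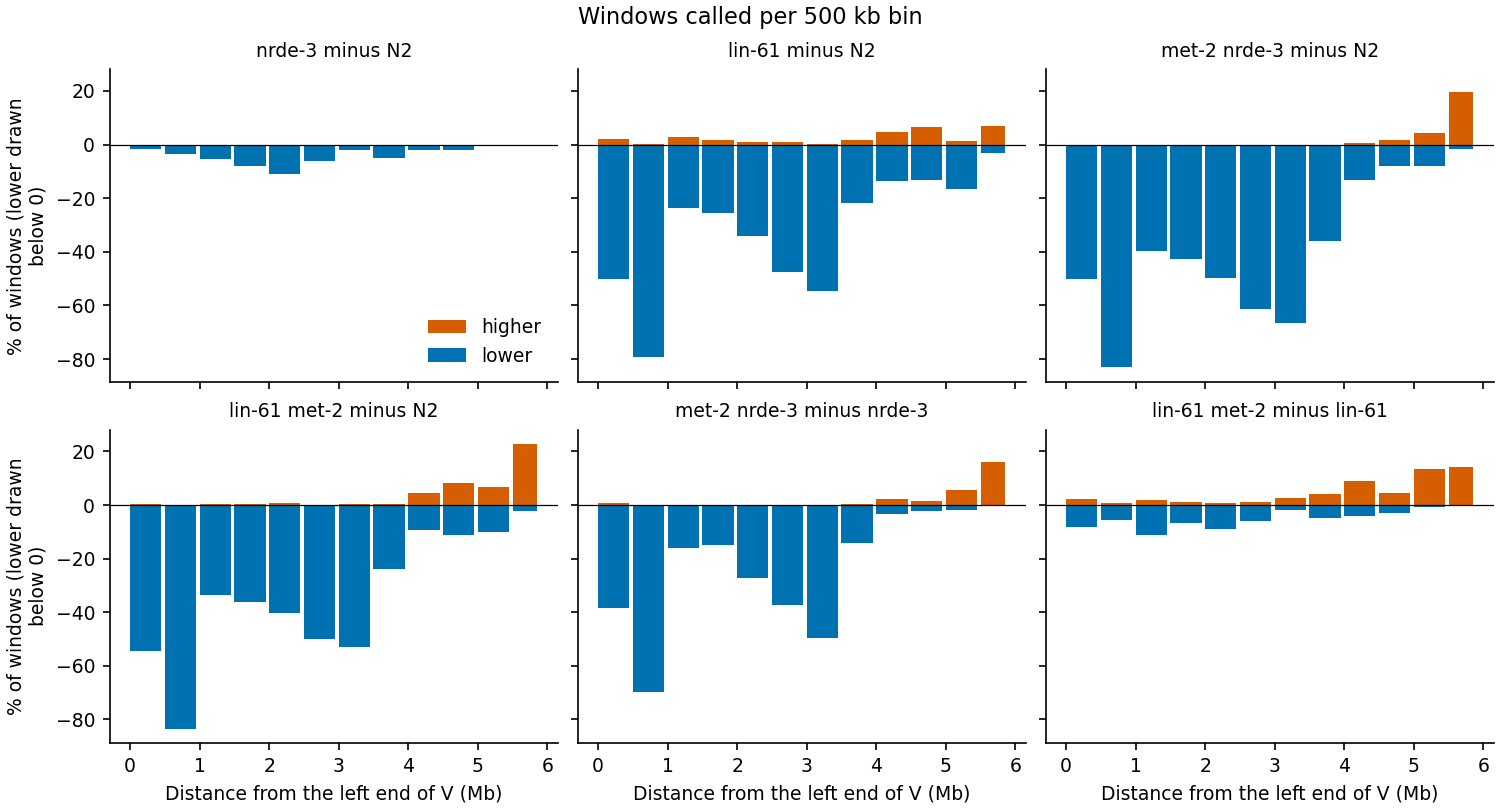
Share of evenly covered windows called lower (drawn below 0) or higher (above 0) in each 500 kb bin of the left arm, in percent of the bin's windows, for the 6 comparisons, against the distance from the left chromosome end in Mb. In both double mutants against N2, lower windows reach 82.9% and 83.4% in the bin that starts at 500001, and higher windows are most frequent in the innermost bin.

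In lin-61 and in both double mutants, lower windows were most frequent in the bin where N2 was highest. N2 is also the reference of these calls, which favours lower calls where its level is high. In the bin from 500001 to 1000000, 79.4% of windows were lower in lin-61, 82.9% in met-2 nrde-3 and 83.4% in the lin-61 met-2 double mutant, but 3.40% in nrde-3. In nrde-3 the share of lower windows was highest in the bin from 2000001 to 2500000, at 10.9%. In the innermost bin the shares of lower windows were 3.07% in lin-61, 1.60% in met-2 nrde-3, 2.13% in lin-61 met-2 and 0.133% in nrde-3.

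Most windows that were higher in the double mutants lay beyond 4 Mb from the left end, where 3542 of the 10527 tested windows are. They were all 209 higher windows of met-2 nrde-3 and 354 of the 377 of lin-61 met-2, and 146 and 171 of them were in the innermost bin. In that bin 19.5% of windows were higher in met-2 nrde-3 and 22.8% in the lin-61 met-2 double mutant, compared with 6.80% in lin-61 and 0 of 750 windows in nrde-3 (edgeR), where 33 were higher at an unadjusted p under 0.05. Of all windows tested, 14.6% were higher in met-2 nrde-3, 11.6% in lin-61 met-2 and 6.09% in lin-61. In the adjoining centre of V the shares were 36.6%, 34.3% and 7.90%. In lin-61, 170 of its 266 higher left-arm windows lay beyond 4 Mb too. The 21 higher loci of met-2 nrde-3 held 144 of its higher windows and the 33 of lin-61 met-2 held 161. Of these loci 14 and 19 were beyond 5.5 Mb. The counts of higher windows on the arm fell to 128 and 134 in met-2 nrde-3, and to 159 and 169 in lin-61 met-2, without N2 replicate 2 and without N2 replicate 3.

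The locus with the largest rise in both double mutants was V 5722952 to 5725451. The single mutants ranged there from -0.20 to 0.15 for nrde-3 and from 0.21 to 0.39 for lin-61. The level was 1.93, 1.64 and 2.16 in met-2 nrde-3 and 1.22, 1.16 and 1.27 in lin-61 met-2, against -0.08 and -0.01 in N2. The mean change from N2 was 2.02 in met-2 nrde-3, with a median adjusted p of 1.1e-07, and 1.32 in lin-61 met-2, with a median adjusted p of 0.00013 (edgeR). All 5 windows stayed called in both comparisons under each of 15 alternatives that kept the windows, including every omission of a preparation.

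The longest higher locus of met-2 nrde-3 lay near the inner boundary and covered 10500 bp. At V 5827951 to 5838450 met-2 nrde-3 had 1.01, 0.87 and 1.14 and lin-61 met-2 had 0.26, 0.31 and 0.18, against -0.28 and -0.43 in N2, a mean change of 1.44 in met-2 nrde-3. A core of it, V 5834951 to 5837950, was called in lin-61 met-2 with a mean change of 1.13. Beside it, V 5839451 to 5845950 had 1.19, 1.07 and 1.41 in met-2 nrde-3, against -0.18 and -0.14 in N2. At V 5717952 to 5721451 the levels were 1.05, 0.89 and 1.07 in met-2 nrde-3, against -0.26 and -0.31 in N2. At V 5876451 to 5879450 the preparations of the double mutants overlapped, with 0.95 to 1.17 in met-2 nrde-3 and 0.86 to 1.19 in lin-61 met-2, against -0.08 and -0.11 in N2. At V 5697452 to 5702451 they overlapped too, with 0.76 to 1.08 in met-2 nrde-3 and 0.59 to 0.85 in lin-61 met-2, against -0.05 and -0.08 in N2. The longest higher locus of lin-61 met-2, V 5795951 to 5802450, covered 6500 bp and had 0.38, 0.49 and 0.52 in lin-61 met-2, against -0.25 and -0.23 in N2, a mean change of 0.81.

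The gain was small over the arm as a whole. Of 6331 left-arm windows below 0.5 in N2, 40 reached 1 in met-2 nrde-3, 31 in lin-61 met-2, 20 in both, 27 in lin-61 and none in nrde-3. The 100 kb bin at the inner end, from 5800001 to 5897000, had the largest rise of the arm in all comparisons with N2. It had -0.08 ± 0.06 in nrde-3, -0.11 ± 0.04 in lin-61, 0.31 ± 0.04 in met-2 nrde-3 and 0.21 ± 0.02 in the lin-61 met-2 double mutant (SD, n = 3 each), against -0.21 ± 0.01 in N2 (SD, n = 2). The largest fall of a 100 kb bin was at 1600001 to 1700000 in nrde-3 (-0.78), at 700001 to 800000 in lin-61 (-1.67) and at 400001 to 500000 in both double mutants, by -2.41 in met-2 nrde-3 and -2.15 in the lin-61 met-2 double mutant.

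Of 58 bins of 100 kb with evenly covered windows, 36 were lower and 8 higher in nrde-3, against 38.5% lower and 43.0% higher of all 1007 bins of the genome. The counts were 40 and 10 in lin-61, against 41.5% and 46.6% of all bins. They were 44 and 5 in met-2 nrde-3, against 43.8% and 48.7%, and 41 and 11 in lin-61 met-2, against 42.4% and 51.4%. In nrde-3, 1 bin was lower and 0 higher without N2 replicate 3, 23 and 7 without nrde-3 replicate 1, and 24 and 5 without nrde-3 replicate 3 (edgeR). With N2 replicate 1 kept as labelled, the lower and higher bins were 0 and 0 in nrde-3, 0 and 0 in lin-61, 28 and 3 in met-2 nrde-3 and 7 and 6 in the lin-61 met-2 double mutant.

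The outer arm had higher levels in nrde-3 than in met-2 nrde-3, where long stretches were near 0. In met-2 nrde-3 against nrde-3, 2407 windows were lower, or 22.9%, against 14.3% of all windows, and 218 were higher, or 2.07%, against 11.3% of all windows. The count of lower windows was 1521 without nrde-3 replicate 2. On the arms of I to IV 21.7% of windows were lower and 4.7% higher. The largest mean change, -2.01, was at V 376975 to 450973, with 0.09, 0.03 and 0.03 in met-2 nrde-3, against 1.79, 2.67 and 1.31 in nrde-3, and a median adjusted p of 2.9e-06 (edgeR). The longest, V 496974 to 612473, had -0.01, 0.00 and 0.00 in met-2 nrde-3, against 1.43, 2.24 and 0.96 in nrde-3, a mean change of -1.67. Further large falls were at V 731973 to 739472 (-1.91), V 314975 to 316974 (-1.77) and V 620474 to 683972 (-1.73). Higher windows included V 5722452 to 5725451, with 1.74, 1.44 and 1.90 in met-2 nrde-3, against -0.15, 0.15 and -0.01 in nrde-3, a mean change of 1.75. The longest higher locus, V 5829451 to 5837950, had a mean change of 1.33, and V 5839451 to 5845450 (1.38), V 5717952 to 5721451 (1.30) and V 5670952 to 5673451 (1.22) were of like size. Of the 58 bins, 41 were lower and 4 higher, against 42.0% and 41.5% of all bins, and 7 were higher without nrde-3 replicate 2.

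Between lin-61 met-2 and lin-61, calls on the arm went in both directions, and 355 of the 485 higher windows lay beyond 4 Mb. The 36 higher loci held 172 of these windows, and 32 of the loci lay beyond 4 Mb. In lin-61 met-2 against lin-61, 539 windows were lower, or 5.12%, against 6.70% of all windows, while the higher ones were 4.61%, against 7.83% of all windows. The counts fell to 222 and 241 lower windows without lin-61 replicate 1 and without lin-61 replicate 2, and to 261, 274 and 278 higher windows without lin-61 replicate 1, 2 and 3. Both shares were below those of the genome, and the median change of the arm was 0.00. On the arms of I to IV 11.5% of windows were lower and 2.65% higher. The left-arm counts rose to 1192 lower and 825 higher windows with limma after dividing each preparation by its own spread. With windows of 2000 bp, counted as 500 bp windows, they were 1003 and 1161. Of the 58 bins, 11 were lower and 12 higher, against 23.0% and 29.7% of all bins. The balance depended on single preparations, with 15 lower and 6 higher bins without lin-61 replicate 3, and 7 and 11 both without lin-61 replicate 1 and without lin-61 met-2 replicate 1.

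Among the lower loci of this comparison, V 2082967 to 2086466 had the largest change, with -0.05, 0.04 and -0.08 in lin-61 met-2, against 1.05, 1.14 and 0.85 in lin-61, a mean change of -1.17 and a median adjusted p of 0.013 (edgeR). The same stretch had a mean level of -0.10 in met-2 nrde-3 and 2.33 in N2. Lower loci of like size were V 667973 to 670972 (-1.17), V 443974 to 448473 (-1.15, the longest together with the next), V 2054467 to 2058966 (-1.08) and V 384975 to 387474 (-1.06). No window of V 443974 to 448473 was called without lin-61 replicate 1.

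The higher loci of lin-61 met-2 against lin-61 included sites where lin-61 was below every other genotype. At V 5473453 to 5477452 the level was 2.25, 2.22 and 2.34 in lin-61 met-2, against 1.20, 1.11 and 0.92 in lin-61, a mean change of 1.25 and a median adjusted p of 0.015 (edgeR). Here met-2 nrde-3 had 2.64 to 3.28, nrde-3 had 1.46 to 2.96, and N2 had 2.91 and 3.08. At V 4305458 to 4312457, the longest, the level was 2.33, 1.95 and 2.25 in lin-61 met-2, against 1.21, 1.22 and 0.84 in lin-61, a mean change of 1.18. At V 170976 to 175474 it was 0.86, 0.70 and 0.99 in lin-61 met-2, against -0.08, -0.14 and -0.15 in lin-61, while N2 had 0.81 and 1.05. At V 5429453 to 5432952 both double mutants exceeded N2, with 1.22, 1.08 and 1.28 in lin-61 met-2 and 1.32 to 1.86 in met-2 nrde-3, while lin-61 had 0.11 to 0.30 and N2 had 0.71 and 0.72. At V 5457453 to 5458952 no genotype was enriched. The level was 0.01 ± 0.20 in lin-61 met-2 and -0.89 ± 0.04 in lin-61 (SD, n = 3 each), a mean change of 0.97.

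The met-2 difference itself was tested between the backgrounds by a contrast added after the counts of each were seen. Each met-2 difference lies within 1 library series, but the backgrounds are in different series. The series and the lin-61 background therefore cannot be told apart in this contrast. The difference was lower, that is more negative, in the nrde-3 background in 1011 left-arm windows, or 9.60%, against 5.62% of all windows, and higher in 103, or 0.978%, against 5.04% of all windows (edgeR, adjusted p under 0.05). The lower windows were concentrated between 500001 and 1000000, where 37.3% of windows were called, and between 3000001 and 3500000, with 23.9%. Of the 58 bins of 100 kb, 32 were lower and 0 higher in the nrde-3 background (edgeR), against 26.3% lower and 27.9% higher of all bins, and 0 were higher at an unadjusted p under 0.05. With N2 replicate 1 kept as labelled, 5 bins were lower and 0 higher (edgeR), although N2 is not part of this contrast, and without nrde-3 replicate 3 the counts were 40 and 1. The count of lower windows was between 471, without lin-61 replicate 3, and 1644, without nrde-3 replicate 3. It was 559, 663 and 626 without met-2 nrde-3 replicates 1, 2 and 3 and 602 without nrde-3 replicate 2. After dividing each preparation by its own spread, limma called 1233 lower and 180 higher windows. The right arm of V had 34.4% of its windows lower in this contrast, the centre 1.87% and the arms of I to IV 6.03%.

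The stretches most enriched in N2 were followed through the mutants as domains. Enriched windows of N2 were joined across at most 2 other windows, and at least 10 windows were required. This gave 64 domains on the left arm with a median length of 9500 bp, which covered 15.9% of the arm and held 67.9% of its enriched N2 windows. The mean level of a domain was at least 1 in 40 of them in nrde-3, in 5 in lin-61, in 9 in met-2 nrde-3 and in 8 in lin-61 met-2. The median domain had 1.08 in nrde-3, 0.61 in lin-61, 0.12 in met-2 nrde-3 and 0.44 in the lin-61 met-2 double mutant, against 1.85 in N2. Since N2 chose the domains, these values are given as a description.

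The choice also bears on the double mutants set against the single mutants, since the N2 profile was closer to the single mutants, so these counts are a description too. All 3 preparations of met-2 nrde-3 lay below all 3 of nrde-3 in 54 domains, and the preparations overlapped in the other 10. The median difference was -0.89, with a range of -1.78 to 0.71. All 3 preparations of lin-61 met-2 lay below all 3 of lin-61 in 24 domains, above them in 6, and overlapped in 34, with a median difference of -0.15. Over all left-arm windows tested the median change was -0.22 and 0.00 in these comparisons.

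**Figure D4:**
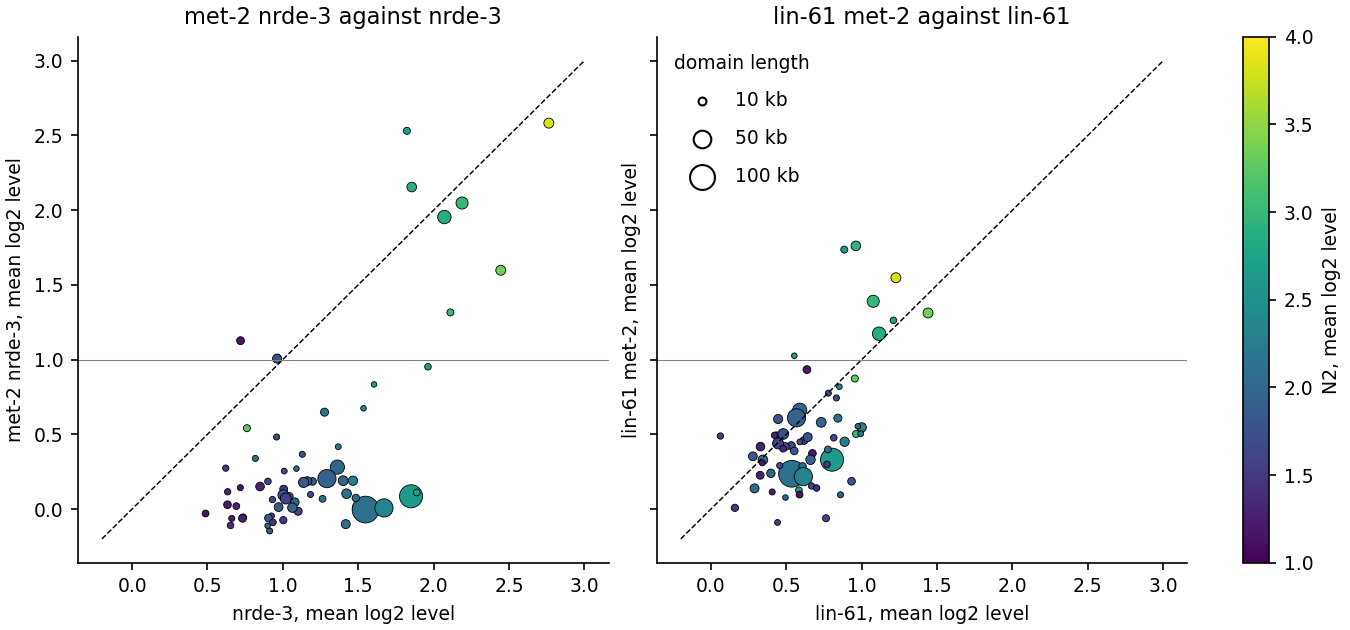
Mean log2 ratio of H3K9me3 over input in the 64 N2 domains of the left arm, double mutant on the vertical axis and its single mutant on the horizontal axis. Each circle is a domain, its area grows with its length and its colour gives the N2 level; the dashed line marks equal levels and the grey line marks a level of 1 in the double mutant. The largest circles lie near 0 in met-2 nrde-3, and 6 domains of 8000 to 29000 bp lie above 1 in both double mutants.

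The longest domains were near input level in met-2 nrde-3. The longest of all, V 497474 to 612473, covered 115000 bp and had 1.43, 2.24 and 0.97 in nrde-3, 0.62, 0.63 and 0.36 in lin-61, -0.01, 0.00 and 0.00 in met-2 nrde-3 and 0.19, 0.24 and 0.28 in lin-61 met-2, against 2.04 and 2.22 in N2. The domain at V 364975 to 450473, of 85499 bp, had 1.85 ± 0.68 in nrde-3, 0.80 ± 0.17 in lin-61, 0.09 ± 0.02 in met-2 nrde-3 and 0.33 ± 0.03 in the lin-61 met-2 double mutant, against 2.63 ± 0.17 in N2. At V 630474 to 683972 the means were 1.67 in nrde-3, 0.61 in lin-61, 0.01 in met-2 nrde-3 and 0.22 in the lin-61 met-2 double mutant, against 2.34 in N2. The mutants thus kept one order at these 3 domains, with nrde-3 highest, then lin-61, then lin-61 met-2, and met-2 nrde-3 at input level. The preparations of lin-61 met-2 and met-2 nrde-3 did not overlap at any of the 3. This order crosses the library series, which cannot be told apart from the lin-61 allele here. Overlap between the double mutants was not counted over all domains.

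A pair of long domains further in differed from those. At V 3376462 to 3429961 the level was 1.29 ± 0.54 in nrde-3, 0.57 ± 0.11 in lin-61, 0.20 ± 0.04 in met-2 nrde-3 and 0.61 ± 0.06 in the lin-61 met-2 double mutant, against 1.93 ± 0.14 in N2. At V 3330962 to 3363461 it was 1.36 ± 0.56 in nrde-3, 0.59 ± 0.15 in lin-61, 0.28 ± 0.07 in met-2 nrde-3 and 0.66 ± 0.07 in the lin-61 met-2 double mutant, against 1.98 ± 0.13 in N2. The preparations of lin-61 met-2 overlapped those of lin-61 at both.

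Other domains kept a high level in both double mutants. There were 6 with a mean of at least 1 in both, and they were 8000 to 29000 bp long. The most strongly marked domain of the arm in N2, V 314975 to 330974, was one of them, with 2.58, 3.66 and 2.06 in nrde-3, 1.42, 1.36 and 0.90 in lin-61, 2.60, 2.27 and 2.87 in met-2 nrde-3 and 1.63, 1.35 and 1.66 in lin-61 met-2, against 3.73 and 3.93 in N2. The 4 windows at its outer edge, V 314975 to 316974, were those with the largest loss in both double mutants. The adjoining V 317975 to 336974 had 1.98 ± 0.27 in met-2 nrde-3 and 1.21 ± 0.14 in the lin-61 met-2 double mutant, against 3.02 ± 0.12 in N2. The domain at V 788973 to 804972 had 2.45 ± 0.71 in nrde-3, 1.44 ± 0.25 in lin-61, 1.60 ± 0.16 in met-2 nrde-3 and 1.31 ± 0.17 in the lin-61 met-2 double mutant, against 3.36 ± 0.13 in N2.

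The inner arm held 3 of these 6 domains. At V 5470453 to 5478452 the level was 2.49, 2.26 and 2.84 in met-2 nrde-3, against 1.58, 2.63 and 1.25 in nrde-3 and 2.60 and 2.77 in N2, so met-2 nrde-3 overlapped both. In lin-61 met-2 it was 1.63, 1.76 and 1.82, against 1.04, 0.87 and 0.74 in lin-61. At V 4297458 to 4312457 met-2 nrde-3 had 2.15 ± 0.21 and nrde-3 1.85 ± 0.58, and lin-61 met-2 had 1.76 ± 0.13 and lin-61 0.96 ± 0.16, against 2.92 ± 0.17 in N2. At V 5174454 to 5197953 met-2 nrde-3 had 2.05 ± 0.23 and nrde-3 2.19 ± 0.70, and lin-61 met-2 had 1.39 ± 0.12 and lin-61 1.08 ± 0.16, against 3.01 ± 0.13 in N2. At all 3, every preparation of lin-61 met-2 lay above every preparation of lin-61. The last of the 6, V 2778964 to 2807963, was the longest, with 2.07 ± 0.68 in nrde-3, 1.12 ± 0.19 in lin-61, 1.95 ± 0.24 in met-2 nrde-3 and 1.17 ± 0.10 in the lin-61 met-2 double mutant, against 2.86 ± 0.12 in N2 (SD, n = 3 for each mutant and 2 for N2 throughout).

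The domains below 0.5 in both double mutants numbered 40, had a median length of 8750 bp and reached up to 115000 bp. They summed to 589997 bp, against 107500 bp for the 6 that were kept, whose median length was 16000 bp. Of the 40, 15 lay within the outer 1 Mb and none beyond 4 Mb. Of all 64 domains, 20 lay within the outer 1 Mb and 6 beyond 4 Mb. The median N2 level of the 40 was 1.69, against 2.97 for the 6 kept domains. The classes were set by fixed levels, which favours domains with a high N2 level among those kept.

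Some domains differed between the double mutants. At V 721473 to 729472 the level was 1.33, 1.14 and 1.48 in met-2 nrde-3 and 0.49, 0.40 and 0.62 in lin-61 met-2, against 2.92 and 3.11 in N2. The neighbouring domain at V 731973 to 739472 was near input in both, with 0.02 to 0.17 in met-2 nrde-3 and -0.03 to 0.24 in lin-61 met-2, against 2.55 and 2.87 in N2. At V 834473 to 841472 the order was the other way, with 0.76 to 1.05 in met-2 nrde-3 and 1.13 to 1.34 in lin-61 met-2, against 2.60 and 2.79 in N2. The mutants that carry lin-61 come from the other library series, which cannot be told apart from the genotype here.

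A pair of adjacent blocks on the left arm differed between genotypes in the input itself. The blocks, V 2347466 to 2454965 and V 2455466 to 2562964, have 215 windows each and are separated by 1 window. The median input depth relative to the median window of the arm was 0.48 and 0.49 in nrde-3, 0.49 and 0.50 in the met-2 nrde-3 double mutant, and 2.79 and 2.82 in N2. In lin-61 and lin-61 met-2 it was 0 in both blocks, with 146 and 132 counts in the first block over all 3 inputs, against 75844 in nrde-3. The sum of both blocks was thus 0.96 in nrde-3 and 1.00 in the met-2 nrde-3 double mutant, against 5.61 in N2, a ratio of N2 to nrde-3 of 5.82. The lin-61 and lin-61 met-2 genotypes are the only ones of their library series, so series and genotype cannot be told apart for their depth of 0. No window of the blocks entered the comparisons above, and 1 bin of 100 kb has no value for that reason.

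Over the blocks the H3K9me3 ratio could be formed in the genotypes with input counts there. It was 0.13 ± 0.15 in nrde-3 and -0.16 ± 0.09 in the met-2 nrde-3 double mutant (SD, n = 3 each), against 0.54 ± 0.08 in N2 (SD, n = 2). The depth profiles of the blocks were alike to a limited degree, with a Pearson r between the blocks of 0.08 to 0.43 over 8 inputs and 215 windows, against -0.08 to 0.09 at the same shift outside them. Because the table holds counts per window and no reads, whether fragments were shared between the blocks was not tested.

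**Figure D5:**
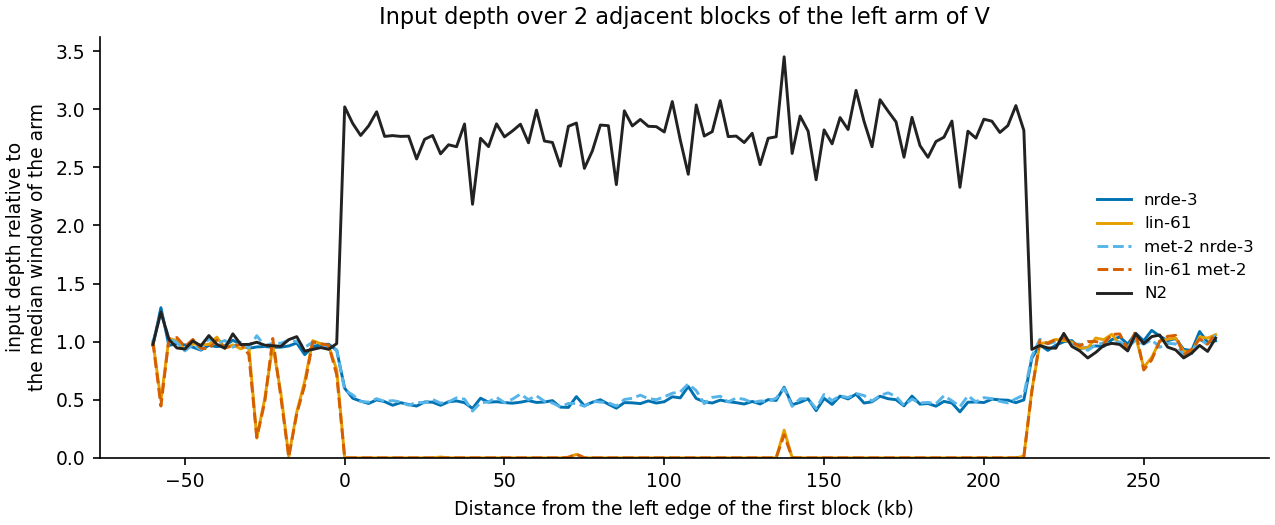
Input depth over the adjacent blocks, relative to the median window of the left arm, against the distance in kb from the left edge of the first block. Lines are means over the inputs of a genotype; inside the blocks the N2 line lies near 2.8, nrde-3 and met-2 nrde-3 near 0.5, and lin-61 and lin-61 met-2 at 0 apart from a few windows.

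Outside the blocks, 837 further left-arm windows were not evenly covered. In 652 of them the inputs of both genotypes with the lin-61 allele were lower than the others by more than 1.5 times, and in 130 they were below 0.05 of the median depth. These windows carried more H3K9me3 than the rest of the arm. Their mean log2 ratio was 0.85 ± 0.38 in nrde-3 and 0.38 ± 0.07 in the met-2 nrde-3 double mutant (SD, n = 3 each), against 1.43 ± 0.10 in N2 (SD, n = 2). Of these windows 38.0% were enriched in nrde-3 and 16.2% in the met-2 nrde-3 double mutant, against 62.0% in N2. At V 766473 to 770972 the level was 2.03 ± 0.71 in nrde-3 and 1.54 ± 0.17 in the met-2 nrde-3 double mutant, against 3.06 ± 0.11 in N2, at input depths of 1.02, 1.00 and 0.94. At V 3434962 to 3440960 it was 1.36 ± 0.55 in nrde-3 and 0.04 ± 0.01 in the met-2 nrde-3 double mutant, against 2.82 ± 0.35 in N2, at input depths of 2.74, 2.64 and 2.55. The values for lin-61 and lin-61 met-2 in these windows were not used here, and the left-arm shares above leave these windows out.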

How the data were processed

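Per the labels' protocols, early-embryo chromatin was immunoprecipitated, and fragments were amplified and read from both ends. The antibody named in the extraction protocol is against LEM-2, although sample titles give H3K9me3, and the growth protocol speaks of 2 biological replicates where 3 are labelled. The deposited values are raw counts per 500 bp window of ce10, the build in the submitters' processing notes, with 1 column for each of 30 libraries, which combine the 2 runs of the 60 records. Aligner, counting tool and handling of duplicates and repeats are not given in the sources used here. Fragments were amplified and carry no molecular identifiers, so the depth overstates the number of molecules.

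The library labelled N2 input 1 had a 99th percentile of 11.2 times the median, against 1.24 to 1.31 in the other inputs, and N2 H3K9me3 1 had 1.37, against 2.42 to 20.4. Both were left out. Kept were 184418 of 200579 windows whose mean input differed by at most 1.5 times between genotypes. edgeR 4.0.16 in R 4.3.3 fitted 1 group per genotype and library type, without pairing by replicate number, with TMM factors of 0.581 to 1.14 and a dispersion of 0.0153. A contrast set the H3K9me3 to input ratio of one genotype against another's. Levels are log2 ratios of scaled counts with a pseudocount of 8. Exact permutation tests, two-sided, compared arm levels, with adjustment after Benjamini and Hochberg. Replicate libraries differed by 1.57 to 25.3 in chi-square per degree of freedom, so none was a duplicate.

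Loci were called windows joined across at most 1 other window, with at least 3 called windows and preparations of the genotypes apart. The 5 with the largest mean change and the longest were named per comparison and direction, and of the N2 domains the 10 highest and 5 longest. Regions, lists and rules were chosen with earlier results of these data known. On simulated counts for met-2 nrde-3 against nrde-3 with 184418 windows, 57 of 100 changes of 2-fold and 100 of 100 of 4-fold were recovered, with 8 false calls. All libraries were simulated with 1 dispersion of 0.015. The real nrde-3 H3K9me3 libraries differed by 5.26 to 25.3 in chi-square per degree of freedom, and recovery at their own spread was not tested. DESeq2 1.42.0 and limma 3.58.1 were alternatives. Genes and sequences are not used here, since the annotation at hand is of another build.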

Additional observations from a re-analysis of the deposited data

Results flagged for a closer look

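The difference between the backgrounds in the effect of met-2 was flagged because its own test made calls on the left arm: 1011 windows, or 9.60%, were lower and 103, or 0.978%, were higher in the nrde-3 background than in the lin-61 background (edgeR, adjusted p under 0.05). Over all windows the shares were 5.62% and 5.04%. The library series cannot be told apart from the lin-61 background.

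Data outside the comparisons were flagged at 3 points. The input of the adjacent blocks summed to 5.61 times the median window in N2, against 0.96 in nrde-3 and 1.00 in the met-2 nrde-3 double mutant. The windows outside the blocks that were not evenly covered had a mean log2 ratio of 1.43 in N2, above the 0.60 of the evenly covered left arm. N2 replicate 1, used as labelled, had a left-arm level of -0.45, against 0.56 and 0.64 in the other N2 preparations.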

How the results depend on the processing

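Leaving out 1 preparation at a time kept the direction of all 6 left-arm level differences, which ranged from -0.35 to -0.17 in nrde-3 minus N2, -0.50 to -0.42 in lin-61 minus N2, -0.61 to -0.53 in met-2 nrde-3 minus N2, -0.54 to -0.45 in lin-61 met-2 minus N2, -0.40 to -0.23 in met-2 nrde-3 minus nrde-3 and -0.06 to -0.00 in lin-61 met-2 minus lin-61. Where 1 N2 preparation was left, it was assumed to vary like the other groups. Counts of lower windows then ranged from 11 to 2646, 1964 to 3099, 2902 to 3738, 2441 to 3561, 1521 to 2710 and 222 to 478 in the same order of comparisons, and from 471 to 1644 for the difference of the met-2 effects. Counts of higher windows ranged from 0 to 6, 97 to 210, 128 to 189, 159 to 417, 159 to 300 and 261 to 476, and from 61 to 117 for the difference, with 67 without met-2 nrde-3 replicate 3 and 64 without lin-61 replicate 3. Lower bins of 100 kb ranged from 1 to 44, 36 to 40, 41 to 45, 38 to 41, 40 to 41 and 7 to 15, and from 29 to 40 for the difference. Higher bins ranged from 0 to 9, 9 to 10, 4 to 6, 10 to 12, 4 to 7 and 6 to 11, and from 0 to 1 for the difference. With library totals as scaling, the level difference reversed to 0.19 for nrde-3, 0.28 for lin-61 and 0.24 for the lin-61 met-2 double mutant minus N2. Windows called lower and higher against N2 were then 137 and 775 in nrde-3, 1223 and 3848 in lin-61, 2243 and 2247 in met-2 nrde-3, and 1554 and 4369 in lin-61 met-2. With N2 replicate 1 kept as labelled, the nrde-3 level difference reversed to 0.10, and lower and higher windows were 0 and 0 in nrde-3, 1 and 14 in lin-61, 260 and 132 in met-2 nrde-3 and 218 and 157 in lin-61 met-2 against N2. They were 244 and 138 in met-2 nrde-3 minus nrde-3, 122 and 174 in the lin-61 met-2 double mutant minus lin-61 and 28 and 20 for the difference, and lower and higher bins were 0 and 0 in nrde-3, 0 and 0 in lin-61, 28 and 3 in met-2 nrde-3 and 7 and 6 in the lin-61 met-2 double mutant against N2, 4 and 4 in lin-61 met-2 minus lin-61, and 5 lower for the difference. With all windows of at least 1 count, 21 bins were lower in nrde-3 and 10 higher in the met-2 nrde-3 double mutant against N2, and bins of 50 kb, counted as 100 kb bins, gave 2 higher for the difference. Division by the spread, with limma, gave 9 lower windows in nrde-3, 1455 in lin-61, 2640 in met-2 nrde-3 and 2131 in the lin-61 met-2 double mutant against N2. It gave 352 higher windows in met-2 nrde-3 minus nrde-3, 1192 lower and 825 higher in lin-61 met-2 minus lin-61, and 180 higher for the difference. A threshold of 0.01 gave 42 lower windows in nrde-3, and 114, 115 and 160 higher windows in lin-61, met-2 nrde-3 and the lin-61 met-2 double mutant against N2, 154 lower and 136 higher in lin-61 met-2 minus lin-61, and 285 lower and 35 higher for the difference. DESeq2 gave 937 lower windows and 1 higher in nrde-3, H3K9me3 libraries without input gave 414 higher in lin-61, and the N2 library series alone, added after the data were seen, gave 4 higher in nrde-3 and 339 in the met-2 nrde-3 double mutant. Windows of 2000 bp, counted as 500 bp windows, gave 1529 lower and 36 higher in nrde-3, 429 higher in lin-61, 505 in met-2 nrde-3 and 798 in the lin-61 met-2 double mutant against N2. They gave 3682 lower and 365 higher in met-2 nrde-3 minus nrde-3, 1003 lower and 1161 higher in lin-61 met-2 minus lin-61, and 2360 lower and 255 higher for the difference. The cause of these shifts was not tested. Pairing by replicate number was not used, since same-numbered samples of different genotypes had correlations of -0.392 to 0.309 and input and H3K9me3 of a preparation -0.121 to 0.0367. A replicate block by number gave 379 and 0, 3335 and 256, 4010 and 203, 3586 and 364, 2373 and 217, and 519 and 463 lower and higher windows, and a replicate block by preparation gave 525 and 1 in nrde-3. A minimum mean of 50 counts removed no window and tests nothing. Over the remaining alternatives that left out no preparation, those above included, 63 of 87 counts of lower windows, 57 of 87 of higher windows, and 28 of 35 each of lower and of higher bins stayed within 1.5 times. At the depth and spread simulated, 57 of 100 changes of 2-fold were recovered at single windows.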
